A study of Arabidopsis thaliana with 6 samples.

Results

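The leaf polarity genes described here are 10 transcription factor genes of Arabidopsis thaliana, taken by gene identifier from 38194 loci in the deposited count files. Of these, 5 act on the upper (adaxial) side of the leaf and 5 on the lower (abaxial) side. The upper-side genes are the class III homeodomain-leucine zipper (HD-ZIP III) genes PHB (AT2G34710), PHV (AT1G30490), REV (AT5G60690), ATHB8 (AT4G32880) and ATHB15 (AT1G52150). The lower-side genes are the KANADI genes KAN1 (AT5G16560) and KAN2 (AT1G32240), the YABBY genes FIL (AT2G45190) and YAB3 (AT4G00180), and the auxin response factor gene ARF3 (AT2G33860), also called ETTIN. All 10 had an annotated symbol or synonym that matched in the RefSeq annotation.

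RNA was sequenced from seedlings of the 35S:GR-TCP5 line at 12 days of age, 4 h after dexamethasone (DEX, 10 mM as labelled, in 0.1% ethanol and 0.015% silwet) or a mock solution of ethanol and silwet alone. TCP5, a CIN-class TCP factor, is fused to the glucocorticoid receptor and driven in most tissues by the 35S promoter, so both groups carry the construct and the steroid releases the protein into the nucleus. Plants that lack the construct were not analysed here, so effects of dexamethasone and of TCP5 cannot be told apart. Each group held 3 libraries, replicates 1 and 2 from a first sequencing run and replicate 3 from a second. TCP5 transcripts were at 323, 296 and 1177 CPM (exon counts scaled to library size) in mock and at 233, 263 and 964 CPM with DEX. The construct's and the native gene's transcripts are counted together, so the level checks that every library carried TCP5 RNA and not whether the protein moved.

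A flat leaf has an upper side packed for light capture and a lower side for gas exchange, and the sides are kept apart by factors that repress each other. HD-ZIP III proteins specify the upper side, the shoot meristem and the vascular cambium and xylem, and their transcripts are cut by the microRNAs miR165 and miR166, which are made on the lower side. KANADI proteins are repressors that specify the lower side. ARF3 and ARF4 act with them, and their transcripts are cut by trans-acting small RNAs from TAS3, made on the upper side. YABBY proteins are made on the lower side of young leaves and promote blade outgrowth together with co-repressors of the LEUNIG and SEUSS families. CIN-class TCP factors limit growth at the leaf margin, where the sides meet, and whether TCP5 alters the polarity factors within hours is the question the values below address.

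The HD-ZIP III members share a sequence that the list was not built on. The guide strands of miR165 and miR166 in the RefSeq annotation (TAIR10.1) fall in 1 seed family and are shown with the seed (bases 2 to 8 from the 5′ end) in capitals because it is the same in both. Both loci of miR165 encode the first, and all 7 loci of miR166 encode the second.
miR165: uCGGACCAggcuucauccccc
miR166: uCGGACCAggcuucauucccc

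A search of each spliced HD-ZIP III transcript for the stretch with the fewest mispairs to these miRNAs found 1 site in each of the 5 transcripts. The sites are printed 5′ to 3′ as DNA on the strand of the transcript, with the bases opposite the seed in capitals.
PHB: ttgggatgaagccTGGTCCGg
PHV: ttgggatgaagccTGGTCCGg
REV: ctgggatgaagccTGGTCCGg
ATHB8: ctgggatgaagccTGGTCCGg
ATHB15: ctggaatgaagccTGGTCCGg

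The seed was fully paired in all 5. Against miR165, the ATHB15 site had 3 mismatches and the others 2 each, and every site had 1 G:U pair. Against miR166, the ATHB15 site had 2 mismatches and 1 G:U pair, and each of the other sites had 2 mismatches and 2 G:U pairs. PHB and PHV had one identical site and REV and ATHB8 another. Each site lay in coding sequence and was split by an intron, between exons 5 and 6 of the chosen transcript for ATHB8 and between exons 4 and 5 for the others. Intron included, the sites span chr2:14642530-14642666 (minus strand) in PHB, chr1:10799330-10799445 (minus) in PHV, chr5:24398787-24398898 (plus) in REV, chr4:15866872-15866974 (minus) in ATHB8 and chr1:19412976-19413085 (minus) in ATHB15, in TAIR10.1.

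ARF3 is set under a different small RNA. The 21-base stretch of the TAS3 transcript that pairs best with ARF3, shown first with its bases 2 to 8 in capitals, has a pair of sites in the coding part of the last ARF3 exon, shown with the opposite bases in capitals. The ARF3 sites lie at chr2:14325941-14325961 and chr2:14325821-14325841 on the minus strand (TAIR10.1).
TAS3: uUUCUUGAccuuguaagaccc
ARF3 site 1: gggtcttgcaaggTCAAGAAa
ARF3 site 2: aggtcttgcaaggTCAAGAAa

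The first of these had 0 mismatches and 1 G:U pair, and the second had 1 mismatch and 1 G:U pair. ARF4 held the same 2 sequences, letter for letter, and ARF2 held a single site with 1 mismatch and 1 G:U pair. These are matches of letters in a reference, and no small RNA was measured here. The precursors of miR165 and miR166 were not detectable in these libraries: of 9 loci, 8 had no exon count in any of the 6 libraries and MIR166A had 1 count in 1 library. TAS3 itself was measured, at a mean of 6.64 ± 1.87 CPM in the 3 mock libraries and 6.24 ± 2.54 CPM in the 3 DEX libraries (SD).

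The libraries held 33428836 to 76859163 exon counts. Each of the 10 genes passed the filter on low counts, with 212 to 3380 exon counts per library. Levels below are CPM on library sizes scaled by TMM (the trimmed mean of M-values) or, between genes, RPKM, the same per kilobase of the gene length in the files. The labels do not say that replicates were separately grown, so the tests measure the spread between these libraries, which may be partly technical. Leaf mesophyll transcripts were abundant in every library, with 3 listed genes summing to 16087 to 22582 CPM, whereas 3 floral organ genes summed to at most 1.87 CPM. The 12 listed root genes summed to 22.8 to 38.6 CPM in the first run, and to 244 CPM in mock replicate 3 and 122 CPM in DEX replicate 3. Within the first run the mock libraries were at 36.8 and 38.6 CPM and the DEX libraries at 24.2 and 22.8 CPM. In the first run that difference was carried by PHO1, a phosphate exporter of root vessels: the other 11 genes summed to 4.51 and 6.69 CPM with mock and to 6.23 and 4.71 CPM with DEX, and the groups overlapped. In the second run they summed to 153 CPM with mock and 74.8 CPM with DEX, while NRT2.1 alone among the 12 was higher with DEX. Root transcripts were higher in the second run, and the root hair genes EXPA7 and LRX1 and the root tip gene PLT1 had no count in any first-run library. Of the 12, 6 were tested, 1 fell (PHO1, −0.87 ± 0.080; edgeR adjusted p = 0.00258) and 5 were not called. Of the phloem, mesophyll, floral and meristem markers (3, 3, 3 and 1 tested), edgeR called none, and DESeq2 called 1, the mesophyll gene RCA (adjusted p = 0.0119). In such bulk RNA, fewer cells of a type and less RNA per cell cannot be told apart.

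Per length, the YABBY genes were the most abundant of the 10 and KAN2 the least. With mock, YAB3 was at 19.2 ± 0.789 RPKM and FIL at 15.2 ± 2.38 RPKM (SD, n = 3). Then came ATHB15 at 10.9, PHB at 10.3, ATHB8 at 9.84, PHV at 9.36, KAN1 at 8.36, REV at 7.80 and ARF3 at 7.29 RPKM. KAN2 was at 2.94 ± 0.251 RPKM. The ranges of the 3 mock libraries overlapped for every neighbouring pair from ATHB15 down to ARF3, so that order does not stand beyond their spread. YAB3 lay above FIL, FIL above ATHB15 and KAN2 below ARF3 with no overlap. With DEX the first 6 places and the last were the same, and ARF3, REV and KAN1 followed PHV in that order.

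**Figure D1:**
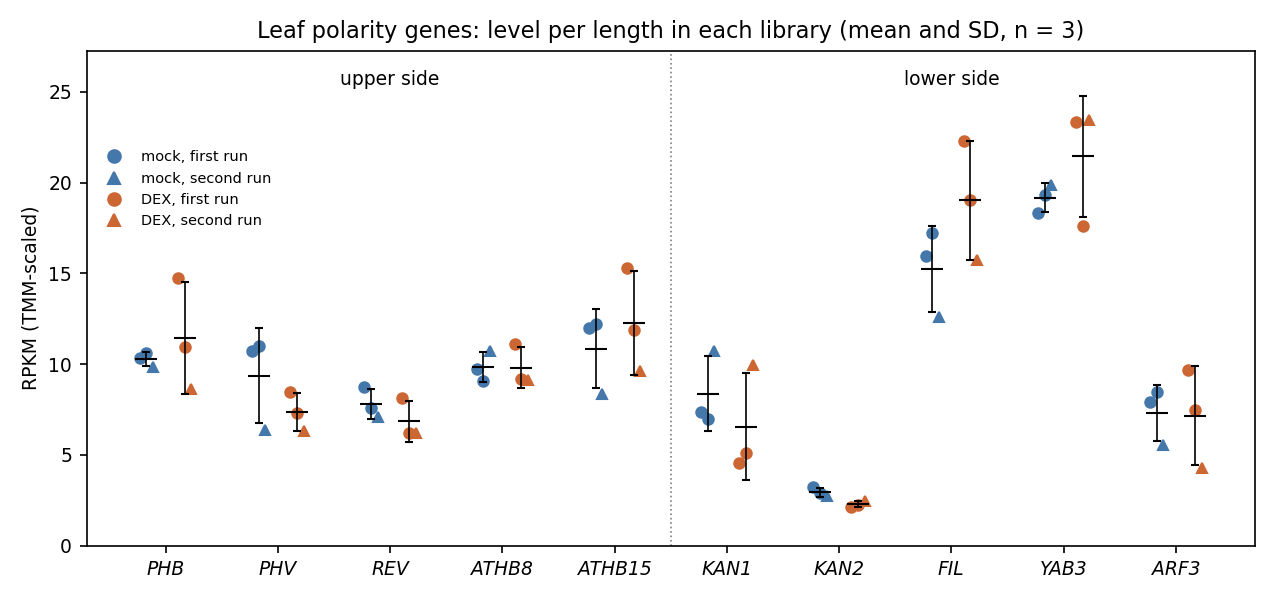
Level per length (RPKM, y axis) of the 10 genes (x axis) in each library, mock in blue and DEX in orange, with circles for the first run and triangles for the second, and bars for the mean and SD of 3 libraries. YAB3 and FIL stand highest and KAN2 lowest, and the mock and DEX points overlap for every gene except KAN2.

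None of the 10 genes was called after DEX. The test was edgeR's quasi-likelihood test over 21934 genes with run and treatment as terms, at an adjusted p under 0.05, and it called 4.67% of all genes tested. At an unadjusted p under 0.05 it took 4 of the 10, KAN1, KAN2 and PHV lower and FIL higher, against 19% of all genes. DESeq2 called 0 of the 10 (background 9.14%) and limma-voom 0 (background 5.16%). The 95% intervals bound what the data allow: over the 10 genes they ran from 0.622-fold to 1.46-fold of mock. A 2-fold change in either direction thus lay outside the interval of each of the 10, and 4 of the 10 intervals left out no change (PHV, KAN1, KAN2 and FIL).

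Among the upper-side genes, PHB, PHV and REV act redundantly in the embryo and young leaf. PHB was at 32.5, 33.4 and 31.0 CPM in mock replicates 1, 2 and 3 and 46.4, 34.4 and 27.2 CPM in DEX replicates 1, 2 and 3. DEX replicate 1 was the highest library and DEX replicate 3 the lowest, so the DEX group spanned the mock group. The log2 fold change was 0.14 ± 0.14 (SE; 95% interval −0.20 to 0.47; adjusted p = 0.676).

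PHV, the closest relative of PHB, was at 33.0, 33.9 and 19.6 CPM in mock replicates 1, 2 and 3 and 26.0, 22.5 and 19.5 CPM in DEX replicates 1, 2 and 3. Both first-run DEX libraries lay below both first-run mock libraries, and the second-run pair was level, so the groups overlapped. PHV had a log2 fold change of −0.32 ± 0.12 (SE; 95% interval −0.59 to −0.044; adjusted p = 0.196). It was −0.46 in the first run alone and −0.00323 in the pair of the second run. PHV and PHB thus had fold changes of opposite sign, and neither passed. Few reads can be shared between them, since 1.62% of the 50-base stretches of PHV transcripts occur in another locus.

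REV, which also patterns the vascular bundle and axillary meristems, was at 30.9, 27.0 and 25.1 CPM in mock replicates 1, 2 and 3 and 28.9, 22.0 and 22.0 CPM in DEX replicates 1, 2 and 3. The groups overlapped. Each DEX library lay below the mock library of the same number, but DEX replicate 1 lay above mock replicate 2 of the same run. The numbers pair libraries by run at most. Between groups the log2 fold change was −0.19 ± 0.12 (SE; 95% interval −0.46 to 0.089; adjusted p = 0.462). REV overlaps AT5G60700 on the opposite strand, and 0.515% of its 50-base stretches lie there, so some reads can belong to either.

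ATHB8 and ATHB15 (also called CORONA) are the HD-ZIP III genes tied most to procambium and xylem. ATHB8 was at 30.7, 28.6 and 33.9 CPM in mock replicates 1, 2 and 3 and 35.2, 28.9 and 28.9 CPM in DEX replicates 1, 2 and 3. The groups overlapped almost fully, and the log2 fold change was −0.00088 ± 0.12 (SE; 95% interval −0.27 to 0.26; adjusted p = 0.997). ATHB15, the upper-side gene with the highest level per length, was at 43.4, 44.2 and 30.2 CPM in mock replicates 1, 2 and 3 and 55.4, 43.0 and 34.7 CPM in DEX replicates 1, 2 and 3. The groups overlapped and both second-run libraries were the lowest of their group. Its log2 fold change was 0.18 ± 0.11 (SE; 95% interval −0.068 to 0.42; adjusted p = 0.429).

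Vascular markers give the setting of these values. Of 9 procambium and xylem genes, 1 rose and 8 were not called, against a background of 1.09% rises. The gene that rose was TMO5, a bHLH factor that drives vascular cell divisions, from 9.06 ± 2.97 to 16.5 ± 3.59 CPM (SD, n = 3; log2 fold change 0.89 ± 0.12; adjusted p = 0.00819). The summed level of the 9 was 148 to 166 CPM in mock libraries and 141 to 169 CPM in DEX libraries, so the groups overlapped. WOX4, which sustains the cambium, was not called, at a log2 fold change of −0.87 ± 0.25 (edgeR adjusted p = 0.0961). The part of vascular cell content in the HD-ZIP III values was not tested.

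On the lower side, the KANADI genes had the lowest fold changes of the 10. KAN1 was at 17.5, 16.7 and 25.6 CPM in mock replicates 1, 2 and 3 and 10.9, 12.2 and 23.7 CPM in DEX replicates 1, 2 and 3. Within each run every DEX library lay below every mock library, while the runs themselves stood apart, so the groups overlapped over all 6 libraries. The log2 fold change was −0.41 ± 0.12 (SE; 95% interval −0.69 to −0.14; adjusted p = 0.0985), and it was not called. It was −0.55 in the first run alone and −0.11 in the pair of the second run. The KAN1 gene overlaps AT5G02555 on the opposite strand, with which 16.5% of its 50-base stretches are shared. That locus held 342 exon counts over the 6 libraries, against 5611 for KAN1. The KAN1 gene also overlaps AT5G16550 on the opposite strand, which held 4963 exon counts. No 50-base stretch of KAN1 transcripts occurs in AT5G16550 transcripts. Like KAN1, the summed root transcripts given above were higher in the second run, and with DEX they were lower in the second run and, through PHO1, in the first. Their part in the KAN1 values was not tested.

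KAN2, which acts redundantly with KAN1, was at 8.16, 7.37 and 6.89 CPM in mock replicates 1, 2 and 3 and 5.48, 5.68 and 6.28 CPM in DEX replicates 1, 2 and 3. It was the only one of the 10 whose groups did not overlap, with all DEX libraries below all mock libraries, a pattern that 8.18% of all genes tested had in one direction or the other. Its log2 fold change was −0.37 ± 0.13 (SE; 95% interval −0.68 to −0.058; adjusted p = 0.184), and it was not called. It was −0.47 in the first run alone and −0.14 in the pair of the second run.

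FIL and YAB3 act redundantly in blade growth. FIL was at 17.8, 19.2 and 14.0 CPM in mock replicates 1, 2 and 3 and 24.8, 21.2 and 17.5 CPM in DEX replicates 1, 2 and 3. In each run the DEX libraries lay above the mock libraries, and over all 6 the groups overlapped. FIL had a log2 fold change of 0.32 ± 0.098 (SE; 95% interval 0.094 to 0.54; adjusted p = 0.120), the highest of the 10. It was 0.33 in the first run alone and 0.32 in the pair of the second run.

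YAB3 was at 26.9, 28.4 and 29.2 CPM in mock replicates 1, 2 and 3 and 34.3, 25.9 and 34.4 CPM in DEX replicates 1, 2 and 3. DEX replicate 2 was the lowest library and the other DEX libraries the highest, so the groups overlapped. Between groups the log2 fold change was 0.16 ± 0.12 (SE; 95% interval −0.11 to 0.43; adjusted p = 0.531). ARF3, which acts with the KANADI proteins and represses meristem genes, was at 19.2, 20.5 and 13.4 CPM in mock replicates 1, 2 and 3 and 23.6, 18.2 and 10.4 CPM in DEX replicates 1, 2 and 3. DEX libraries held both the highest and the lowest value. Its log2 fold change was −0.064 ± 0.14 (SE; 95% interval −0.38 to 0.25; adjusted p = 0.853).

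**Figure D2:**
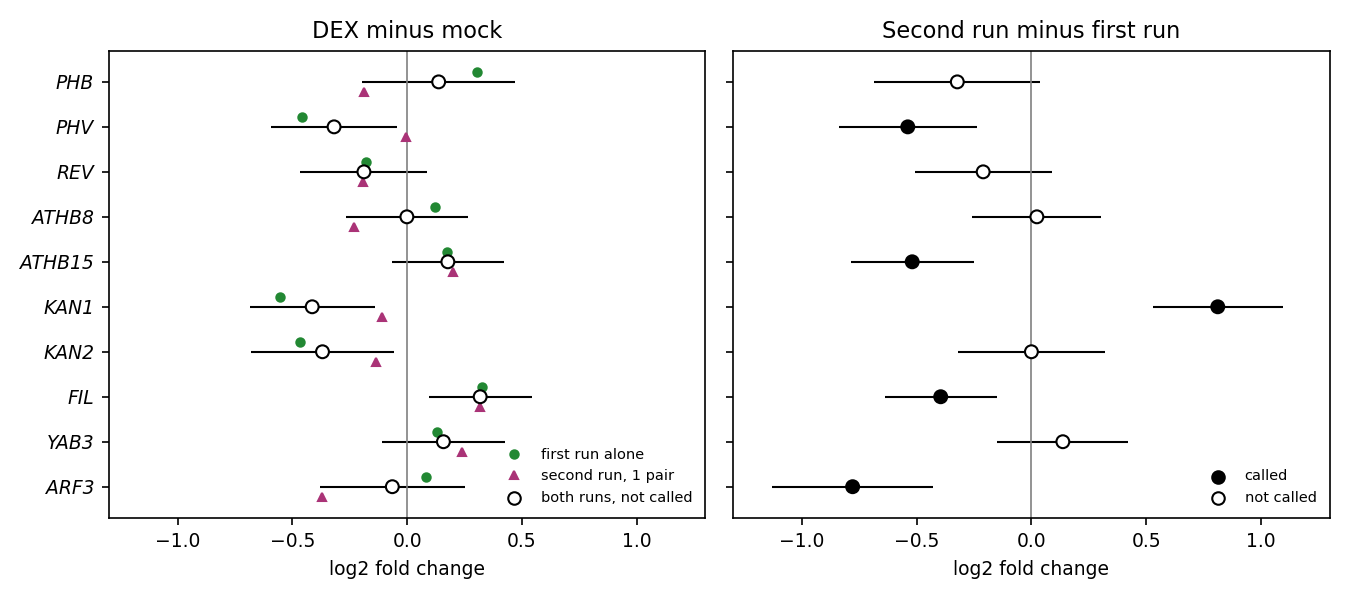
Log2 fold changes (x axis) of the 10 genes (y axis). Left, DEX minus mock over both runs with the 95% interval, with the first run alone in green and the pair of the second run in purple, and with no gene called. Right, second run minus first run with the 95% interval, filled where called: KAN1 lies above 0 and PHV, ATHB15, FIL and ARF3 below it.

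Within runs, 4 of the 10 genes (PHV, KAN1, KAN2 and FIL) had their first-run groups apart and the second-run pair in the same direction, 1 upward and 3 downward. For PHV the second-run pair was nearly level, at a log2 ratio of −0.00323. Of all genes tested, 32.6% did so in one direction or the other, so the share in the list was close to the background. Whether the response to DEX differed between runs was tested as an interaction of run and treatment. That test called none of the 10 and 0% of all genes, and at an unadjusted p under 0.05 it took 0 of the 10 against 6.55% of all genes. For PHB, which lay above mock in both first-run DEX libraries and below it in the second run, the interaction was −0.48 on the log2 scale (adjusted p = 0.801). With 1 pair in the second run, this test has little to go on.

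The median of each side was near that of all genes, with members on both sides of 0. The 5 upper-side genes had a median log2 fold change of −0.00088 and the 5 lower-side genes of −0.064, against 0.00435 over all genes tested. In each set, 3 genes lay below 0. At an unadjusted p under 0.05 stood 1 of the 5 upper-side and 3 of the 5 lower-side genes, the latter split between KAN1 and KAN2 below 0 and FIL above it. Summed over its genes, the upper side was at 51.5, 50.5 and 42.4 RPKM in mock replicates 1, 2 and 3 and at 57.8, 45.5 and 39.9 RPKM in DEX replicates 1, 2 and 3. The lower side was at 52.7, 54.9 and 51.4 RPKM with mock and at 62.0, 51.5 and 55.8 RPKM with DEX.

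The ratio of upper to lower was 0.977, 0.921 and 0.824 with mock and 0.932, 0.883 and 0.715 with DEX. The groups overlapped, and the second-run libraries had the lowest ratio of each group. Within the lower side the families differed in sign. The ratio of summed YABBY to summed KANADI level was 3.24, 3.69 and 2.41 with mock and 6.77, 4.98 and 3.15 with DEX. It was higher with DEX within each run, and over all 6 libraries DEX replicate 3 lay among the mock values. These ratios are descriptions of chosen genes and carry no test.

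**Figure D3:**
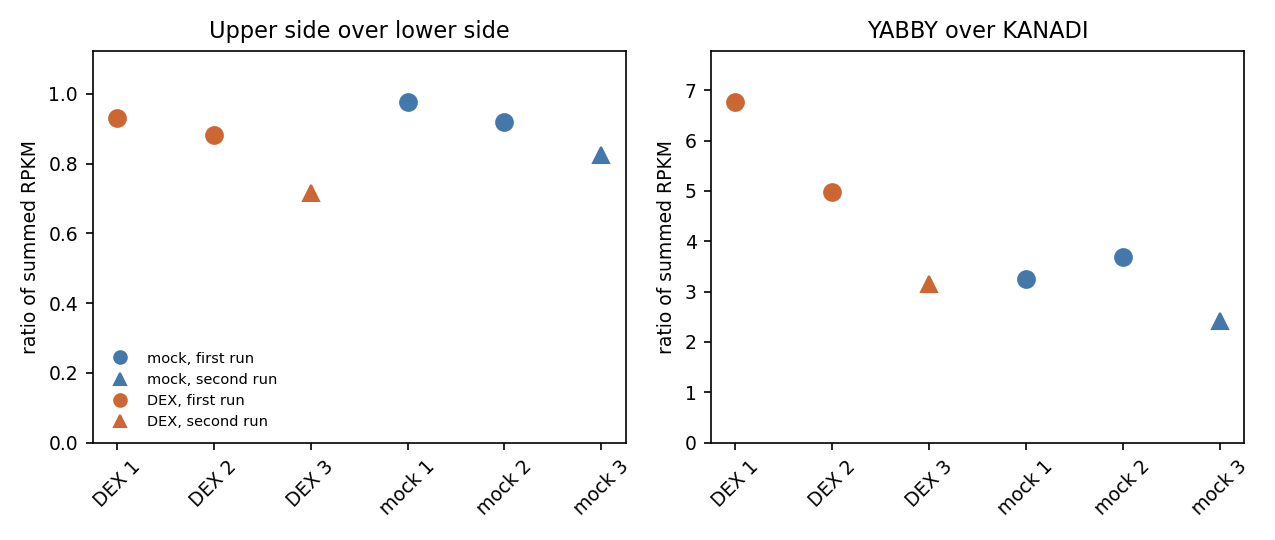
Ratios of summed RPKM (y axis) in each library (x axis), upper side over lower side on the left and YABBY over KANADI on the right, mock in blue and DEX in orange, with circles for the first run and triangles for the second. The left ratios lie between 0.715 and 0.977 with the groups overlapping, and on the right the DEX values lie above the mock values within each run.

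More genes were called between runs than between treatments. Of the 10 genes, 5 were called between runs in the same fit, against 55.5% of all genes, so the share was near the background. KAN1 was higher in the second run, at a mean of 24.7 against 14.4 CPM (log2 difference 0.81 ± 0.12; edgeR adjusted p = 0.000801). ARF3 was lower, at 11.9 against 20.4 CPM (−0.78 ± 0.15; adjusted p = 0.00297). PHV (−0.54), ATHB15 (−0.52) and FIL (−0.40) were also lower on the log2 scale. Without mock replicate 3, 2 of the 10 were called. The summed root transcripts given above were also higher in the second run. So were TCP5 transcripts, at a mean of 1071 against 279 CPM (log2 difference 1.94 ± 0.11; edgeR adjusted p = 5.93e-06). The part of either in these differences was not tested.

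Intron counts are a second readout of the same loci in the same libraries. Introns held 0.955% of the counts of ARF3 and 12.6% of those of FIL, the ends of the range over the 10 genes. Tested alone, the intron counts gave 0 calls among the 10, against 0.939% of 12989 genes, and at an unadjusted p under 0.05 they gave 0 against 9.64%. KAN1 had an intron log2 fold change of −0.80 ± 0.41, KAN2 of −1.16 ± 0.64 and FIL of 0.25 ± 0.21, each with the same sign as in exons. PHV (−0.35 ± 0.31) and ATHB15 (0.013 ± 0.25) also kept their exon sign. The intron sign was opposite to the exon sign for PHB (−0.13 ± 0.39), REV (0.46 ± 0.41), ATHB8 (0.33 ± 0.33), YAB3 (−0.091 ± 0.17) and ARF3 (0.69 ± 0.61). ARF3 rested on 61 intron counts in all, KAN2 on 73, REV on 128, KAN1 on 142 and PHB on 148, so these values are imprecise.

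Among the other genes of the polarity pathway edgeR made 5 calls, against 4.67% of all genes tested. Tested were 6 relatives, 6 upper-side partners, 6 REV and KAN1 targets, 7 small RNA genes, 5 co-repressors and 1 WOX gene. Among 6 tested relatives of the KANADI, YABBY and ARF members, 1 fell and 5 were not called, against a background of 3.58% falls. KAN3, the relative that fell, was at 6.27, 6.62 and 3.96 CPM in mock replicates 1, 2 and 3 and 3.87, 3.76 and 2.31 CPM in DEX replicates 1, 2 and 3. In each run the DEX libraries lay below the mock libraries, and over all 6 DEX replicates 1 and 2 lay just below mock replicate 3, so the groups did not overlap. KAN3 fell by this test, at a log2 fold change of −0.76 ± 0.14 (SE; edgeR adjusted p = 0.0248). The call did not hold with replicate number added as a block (p adjusted to 0.0612) or with first-run libraries only (0.0577). It was also lost when any 1 library except DEX replicate 1 was left out (0.0700 to 0.138). KAN4, a regulator of the ovule's coats, had a log2 fold change of −0.44 ± 0.39, and the leaf YABBY genes YAB2 and YAB5 had 0.075 ± 0.13 and 0.15 ± 0.13. ARF4, the partner of ARF3, had −0.22 ± 0.097 (adjusted p = 0.270) and ARF2 −0.00902 ± 0.088. The floral YABBY genes CRC and INO were too low to test.

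AS2 and AS1 form a repressor complex that limits the lower-side genes and the class I KNOX genes. AS2, which is confined to the upper side, was at 3.29, 3.56 and 3.74 CPM in mock replicates 1, 2 and 3 and 2.16, 1.74 and 1.36 CPM in DEX replicates 1, 2 and 3. All DEX libraries lay below all mock libraries. AS2 fell, at a log2 fold change of −1.01 ± 0.22 (SE; edgeR adjusted p = 0.0419). The block for replicate number took its call away (p adjusted to 0.0837), as did the first-run libraries only (0.119) and leaving out any 1 library except DEX replicate 1 (0.0949 to 0.154). AS1 averaged 32.9 ± 4.65 CPM in mock and 26.2 ± 2.88 CPM in DEX libraries (SD, n = 3), a log2 fold change of −0.32 ± 0.094 that edgeR did not call (adjusted p = 0.101) and DESeq2 did (adjusted p = 0.0447). ZPR1 to ZPR4 encode small zipper proteins that bind and disable HD-ZIP III proteins, and HD-ZIP III proteins promote their transcription. None of the 4 was called, with log2 fold changes of 0.063 ± 0.18, −0.31 ± 0.31, −0.32 ± 0.34 and −0.22 ± 0.24. Of the 6 upper-side partners (AS2, AS1 and these ZPR genes), edgeR called 1 fall and left 5 uncalled, against a background of 3.58% falls.

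Genes reported as targets of REV and KAN1 moved in both directions. Of 6, 2 rose, 1 fell and 3 were not called, against backgrounds of 1.09% rises and 3.58% falls. The list includes genes already known from these data to change, so its counts are no independent evidence. HAT2, an HD-ZIP II gene induced by auxin, rose from 22.5 ± 1.63 to 38.3 ± 2.68 CPM (SD, n = 3; log2 fold change 0.77 ± 0.099; adjusted p = 0.00737). The other HD-ZIP II genes HAT3, ATHB2 and ATHB4, which act on the upper side with HD-ZIP III factors, had −0.35 ± 0.12, −0.29 ± 0.18 and −0.66 ± 0.39 and were not called. The auxin synthesis gene YUC5 rose and TAA1 fell, at 3.14 ± 0.16 and −0.85 ± 0.17 (adjusted p = 0.000435 and 0.0307). For TAA1 the call did not survive the block for replicate number (p adjusted to 0.0571), the first-run libraries only (0.0979) or leaving out any 1 library except DEX replicate 1 (0.0888 to 0.120). YUC5 was at 3.16 and 24.7 CPM in mock and DEX replicate 3, above the first-run libraries of the same group. The summed root transcripts were likewise lower with DEX in the second run and, through PHO1, in the first, and their part in the values of KAN2, KAN3, AS2 and TAA1 was not tested.

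None of the 7 tested genes of small RNA action or the 5 of co-repression was called, against 4.67% of all genes tested. With so few genes, 0 calls is near that share. AGO10, which shelters HD-ZIP III transcripts by binding miR165 and miR166, was at 0.34 ± 0.12 on the log2 scale (edgeR adjusted p = 0.184), and AGO1, which carries out the cutting, had 0.063 ± 0.089. AGO7, needed to process TAS3, had −0.22 ± 0.14 and TAS3 −0.13 ± 0.14. SGS3, RDR6 and DCL4, which complete that pathway, lay between 0.15 and 0.24. The 5 YABBY co-repressor genes of the LUG and SEU families lay between −0.033 and 0.14. WOX1, which works at the boundary between the sides, had −0.32 ± 0.17 (adjusted p = 0.349), and its partner PRS was too low to test.

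**Figure D4:**
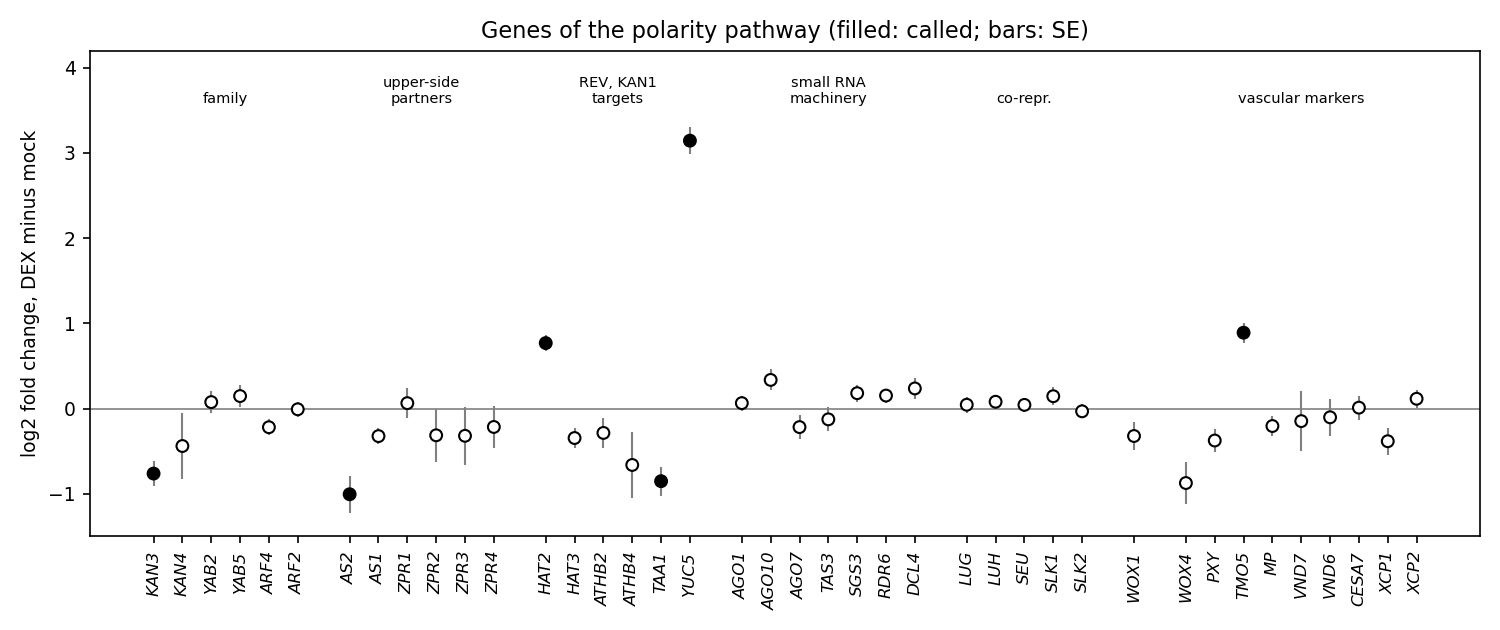
Log2 fold change, DEX minus mock, with its SE (y axis) for the tested genes of the polarity pathway and the vascular markers (x axis), filled where called. YUC5, HAT2 and TMO5 lie above 0 and KAN3, AS2 and TAA1 below it, and every other gene shown is open.

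Some transcripts followed the members across the libraries. After each run's mean was subtracted, the genes most like ATHB15 over the 6 libraries were AT4G24610, CYP706A3 and AT5G23110, at Pearson r of 0.9987, 0.9984 and 0.9980. Those most like YAB3 were AT2G17930, AT1G11540 and HEXO2, at 0.9996, 0.9990 and 0.9985. Such values are easily reached with 6 libraries: 217 of 19433 other genes exceeded 0.95 with ATHB15. Of the other members, YAB3 was most like ATHB15 and ATHB15 most like YAB3 (r = 0.980). KAN1 was least like either (−0.665 and −0.529). Pairs of members without ATHB15 or YAB3 were not compared. The points share library size and run, so these are descriptions.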

How the data were processed

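Raw counts of reads were deposited, 1 file a library, with a column each for exons, introns and their total and one for gene length in bases, per the file headers. The submitters' processing notes name STAR and DESeq2 and no version. The counting program, build and annotation: not given in the sources used here. The library kit keeps no strand, per the labels' protocols, so overlapping genes on opposite strands cannot be told apart. Low exon counts were mostly even (odd ones made up 16.6% to 25.8% of counts from 1 to 20); the reason was not tested.

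Over all loci, edgeR 4.0.16 in R 4.3.3 fitted the exon counts: TMM scaling, filterByExpr (minimum 10, total 15), the robust quasi-likelihood F-test, terms for run and treatment, and Benjamini-Hochberg adjustment over all genes at 0.05. Standard errors are the log2 fold change over the root of F, and 95% intervals use the total degrees of freedom. The alternatives were DESeq2 1.42.0, limma 3.58.1 (voom), other scalings and filters, exon plus intron counts, no run term, a replicate block, first-run libraries only, and leaving out 1 library at a time. The fit was tested on simulated data. Deviations from the group means correlated over genes at 0.715, 0.706 and 0.928 for replicates 1, 2 and 3, so the replicate block is reported. Within the first run both crossed pairs stood higher than the numbered pairs. They were at 0.786 for DEX replicate 1 with mock replicate 2 and 0.795 for DEX replicate 2 with mock replicate 1. The numbers thus pair libraries by run at most.

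Site and coordinate values come from the RefSeq TAIR10.1 sequence and annotation, in the transcript with the longest coding sequence. The files name no build, so no coordinates of theirs are given. Intron counts were fitted in the same way with their own scaling. The members and lists were chosen with earlier results of these data known. The text names all members, the called genes of the lists and the relatives of the members. The other list genes named were picked for their role after their values were seen.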

Additional observations from a re-analysis of the deposited data

How the results depend on the processing

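None of the 10 genes was called after DEX under any of the 15 alternatives, the replicate block (0 calls) among them, nor were there calls in the alternatives for introns or for the interaction. The lowest adjusted p was 0.0554 for KAN1, 0.0694 for FIL and 0.0879 for PHV. Without the run term none of the 10, and none of the called list genes, passed. The signs of PHV, REV, ATHB15, KAN1, KAN2, FIL and YAB3 held in all 15. ATHB8, at a fold change near 0, turned positive with RLE scaling (0.00543), library totals (0.038), no filter (0.00313), DESeq2 (0.00536), limma-voom (0.00537), the first run alone (0.12) and exon plus intron counts (0.00453), and ARF3 in the first run alone (0.081). With 1 library left out, the log2 fold change ranged over −0.036 to 0.30 for PHB, −0.11 to 0.12 for ATHB8 and −0.22 to 0.083 for ARF3. The cause was not tested. Between runs, 2 to 5 of the 10 were called with 1 library left out, 2 without mock replicate 3, and 6 with library totals, which moved the median of all genes to −0.15. The called list genes were put through the same alternatives after the data were seen: HAT2, YUC5, TMO5 and PHO1 kept their call in 14 of 15, all but the fit without a run term, and KAN3, AS2 and TAA1 in 7 of 15. With the replicate block the family relatives and the upper-side partners had 0 calls. Counts of 61 to 1111 intron reads per gene over all libraries limit the intron values.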
